A study of Mus musculus with 6 samples.

Results

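The genes described here are 10 regulators of the G1 phase of the cell cycle: the D-type cyclins Ccnd1, Ccnd2 and Ccnd3, the E-type cyclins Ccne1 and Ccne2, the cyclin-dependent kinases (CDKs) Cdk4, Cdk6 and Cdk2, and the CDK inhibitors Cdkn1b and Cdkn2a. They were chosen by symbol, by a rule that uses no measured values but was set with earlier results of these data known, and all 10 were found among the 53801 genes of the RNA-seq tables. The tables hold 6 libraries of CT26, a colorectal cancer cell line from a BALB/c mouse, with 2 libraries (replicates A and B) for each of 3 lines. The parental line was a bulk culture of ClonTracer-barcoded, puromycin-selected CT26 cells recovered from an established subcutaneous tumor. Lines B04 and B64 were each grown from 1 single cell of an engrafted tumor, carried different barcodes and resisted immune checkpoint blockade. Each resistant line is thus 1 clone and the parental line a mixture. The paper's discussion adds that the clones were isolated after checkpoint blockade, so their changes might predate the treatment or be induced by it. All lines were cultured in complete RPMI-1640 medium, and no treatment of these cultures is described before RNA extraction. The sample titles name the parental line CT26 and the clones B04 and B64, and the study's methods describe cultured cells.

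Passage from G1 into S phase is driven by CDKs bound to cyclins. D-type cyclins, which growth-factor signals induce, activate Cdk4 and Cdk6, and E-type cyclins activate Cdk2. Both kinase groups phosphorylate the retinoblastoma protein Rb1 and its relatives, which releases E2F factors to transcribe the genes of DNA replication and of the E-type cyclins themselves. INK4 inhibitors such as the p16 product of Cdkn2a bind Cdk4 and Cdk6, and KIP inhibitors such as Cdkn1b (p27) bind cyclin-Cdk2 complexes. Cdkn2a also encodes p19Arf, an activator of p53, from a separate first exon.

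Library totals lay between 19409204 and 23472012 expected counts, which RSEM estimates by sharing out reads that match several transcripts. The colorectal origin could be checked only in part, since Epcam, Cdh1, Vil1 and Cdx1 lay at 0 to 0.06 TPM (a level scaled to transcript length and library total) and only Krt18 and Krt20 among 9 epithelial markers reached 1 TPM. The summed TPM of these 9 was 22.38 and 24.15 in the parental line, 25.42 and 24.26 in B04, and 45.74 and 48.23 in B64. The leukocyte genes Ptprc and Cd3e were at most 0.01 TPM, while the list of 9 summed to 23.51 and 25.35 TPM in the parental line, 34.02 and 33.42 in B04, and 60.15 and 60.03 in B64, with only Cd14 and Cd68 reaching 1 TPM. Endothelial markers summed to at most 0.1 TPM, erythroid markers to 0.09 to 2.69 and fibroblast markers to 8.35 to 12.35. The part of these markers in the results below was not tested. The fragments sequenced were shorter in B04 replicate B and in both B64 libraries (gene length minus effective length of 220.8 to 246.2 bases) than in the other 3 libraries (271.8 to 277.3 bases). All B64 libraries were thus of the short class and all parental libraries of the long class. Only B04 had libraries of both classes, so a fit with class as a block takes the class effect from B04 alone. Such a fit holds no comparison of B64 with the parental line within a class. Whether a B64 call kept or lost in it reflects class or line cannot be told apart. Because nothing states that replicates came from separate cultures, p-values measure the spread between these libraries, which may be technical.

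Levels per transcript length spanned a wide range. Cdk4 was the most abundant member at a mean of 823.51 TPM, followed by Ccnd1 at 246.11 TPM. Cdk6 (81.48 TPM) and Ccnd2 (73.2 TPM) came next and their libraries overlapped. Below them stood Ccnd3 at 48.12 TPM and Cdk2 at 30.68 TPM, without overlap with each other. Ccne1 (24.0 TPM), Ccne2 (23.28 TPM) and Cdkn1b (19.92 TPM) overlapped with their neighbors in that order, as did Cdk2 with Ccne1. Cdkn2a was last at 0.22 TPM, and its highest library (0.45 TPM) lay far under the lowest library of Cdkn1b (16.43 TPM). The order of means was the same when normalized counts were divided by the mean gene length.

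**Figure D1:**
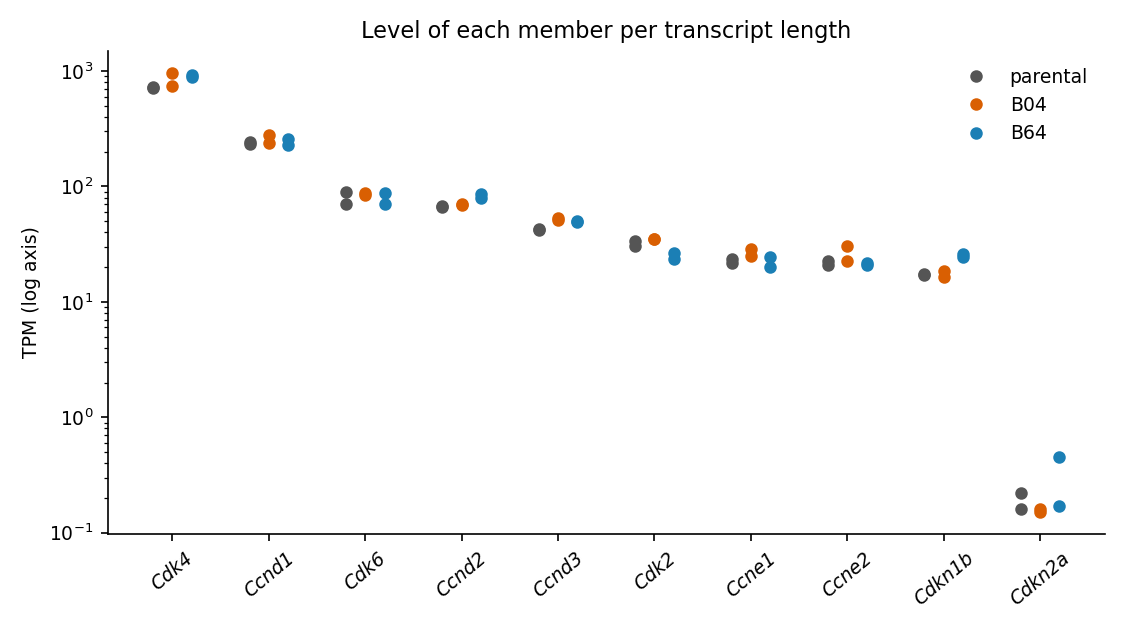
TPM on a log axis for each member, ordered by mean level, with 1 point per library (2 per line) in gray for the parental line, orange for B04 and blue for B64. Cdk4 lies between 709.51 and 967.47 TPM and Cdkn2a between 0.15 and 0.45 TPM.

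Of the members, 0 to 3 were called in each comparison of the lines. Genes were called at an adjusted p under 0.05 in the Wald test of DESeq2, adjusted over all genes tested, and 9 members were tested, since Cdkn2a had too few reads. Between B04 and the parental line, DESeq2 called 0 of the 9, where 23.8% of all 13332 genes tested were called (11.1% higher and 12.8% lower). No member had an unadjusted p under 0.05 in that comparison, and the quasi-likelihood test of edgeR called 1, Ccne2. Between B64 and the parental line 2 of the 9 were called, Cdkn1b higher and Cdk2 lower, against 16.2% of 13332 genes (8.78% higher and 7.39% lower). Between B64 and B04 the count was 3 of 9, with Cdkn1b higher and Cdk2 and Ccne2 lower in B64, against 24.1% of 12935 genes (13.0% higher and 11.0% lower). With so few members these shares cannot be read as above or below the background. The median log2 fold change of the 9 members was 0.02, -0.01 and -0.02 in the 3 comparisons, beside a median over all genes tested of 0.0 in each. Of the genes called, 46.5% were higher in B04 and 54.3% in B64 than in the parental line, and on log2(TPM + 1) with limma these shares were 67.4% and 68.3%. The comparisons with the parental line share its 2 libraries and are therefore not independent of each other. With fragment-length class as a block, DESeq2 called 1593 of 12538, 339 of 13332 and 1623 of 12141 genes in the 3 comparisons.

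**Figure D2:**
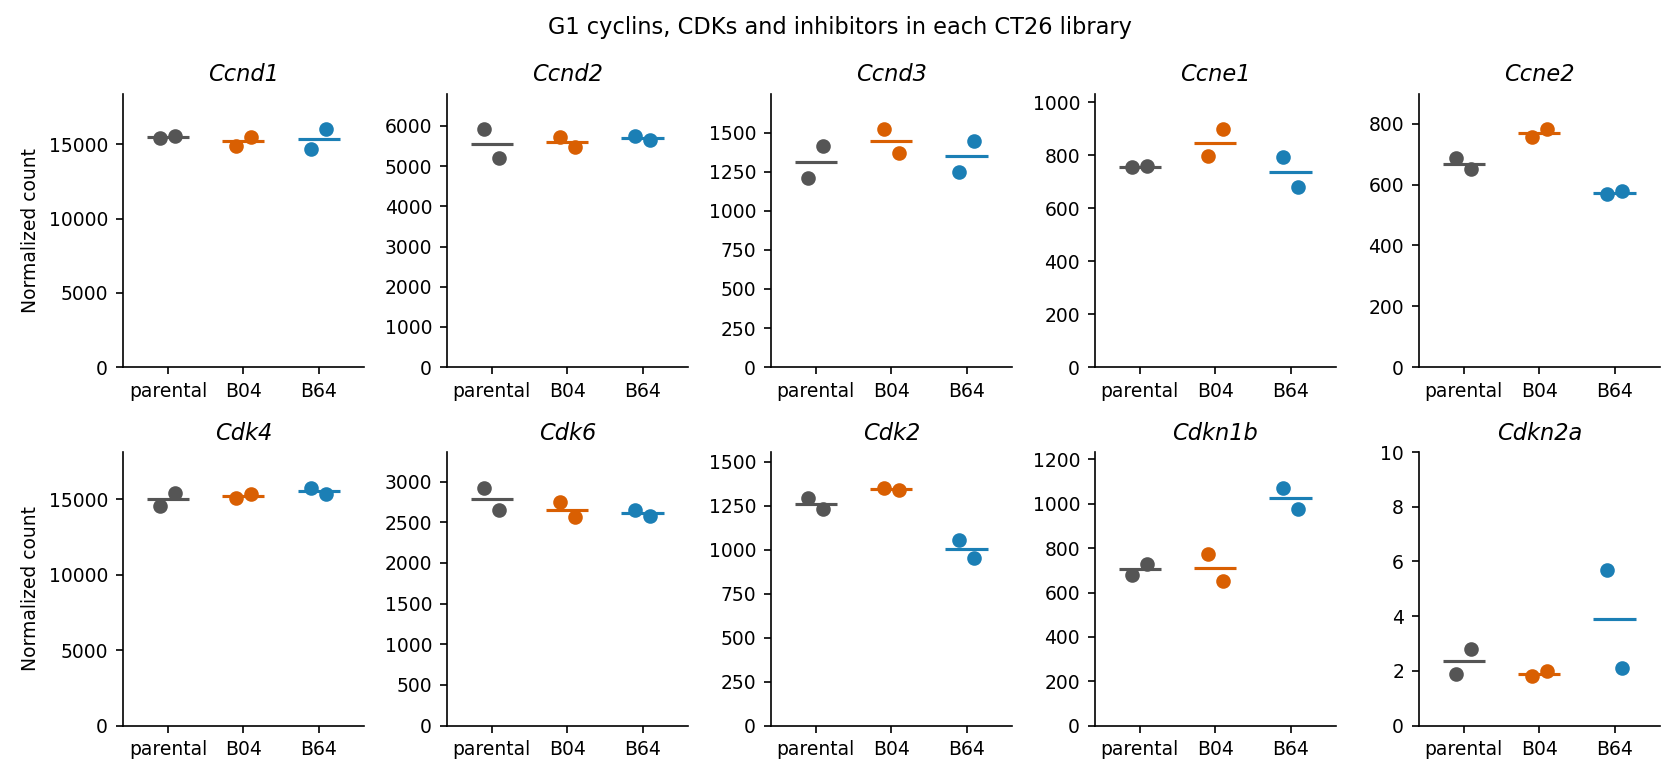
Normalized counts of each member (vertical axes, linear from 0, each panel with its own scale) in the parental line, B04 and B64, with 1 point per library and a line at the mean of 2. The B64 points stand apart for Cdk2 and Ccne2 (below) and for Cdkn1b (above), and all Cdkn2a points are under 6 counts.

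Among the D-type cyclins, no change was called in any line. Ccnd1, the D-type cyclin most tied to mitogen signaling, had 15426 and 15578 normalized counts (expected counts divided by the DESeq2 size factor) in parental replicates A and B, 14898 and 15502 in B04, and 14691 and 16021 in B64. The lines overlapped throughout, and the 95% interval of the log2 fold change was -0.14 to 0.08 for B04 and -0.12 to 0.10 for B64, both against the parental line. Ccnd2 had 5919 and 5202 counts in the parental line, 5730 and 5474 in B04, and 5748 and 5652 in B64. Its intervals were -0.13 to 0.15 for B04 and -0.10 to 0.17 for B64, so on this scale changes beyond those sizes lie outside the interval in either clone. Ccnd3, the form prominent in lymphoid and many differentiated cells, had 1207 and 1411 counts in the parental line, 1521 and 1366 in B04, and 1249 and 1447 in B64. Its groups also overlapped, and its widest interval, for B04 against the parental line, ran from -0.07 to 0.36.

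On the TPM scale the picture for Ccnd2 differed. Its TPM was 67.45 and 66.86 in the parental line, 68.62 and 70.81 in B04, and 78.76 and 86.67 in B64, so that both B64 libraries stood above the other 4. The average transcript length that RSEM assigned to Ccnd2 was 4088 and 3628 bases in B64 and 4123 to 4806 bases elsewhere. A fit with effective length as an offset called Ccnd2 higher in B64 than in the parental line (log2 fold change 0.26, adjusted p = 0.0176, DESeq2) and than in B04 (0.28, adjusted p = 0.00574, DESeq2). Ccnd3 was called higher in B04 than in the parental line by limma on log2(TPM + 1) (0.30, adjusted p = 0.0234) and on log2(TPM + 0.1) (adjusted p = 0.0243), and in no other fit. Whether such shifts lie in the use of transcript forms or in fragment length was not tested.

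The makeup of the D-type pool stayed within a narrow range. Ccnd1 made up 64.1% to 69.3% of the summed TPM of the 3 genes, Ccnd2 17.6% to 22.1% and Ccnd3 11.9% to 14.3%. The lowest Ccnd1 shares, 64.1% and 65.2%, were those of B64, and by normalized count per kilobase the B64 shares (67.0% and 68.0%) fell within the range of the other lines (65.7% to 68.7%). The summed level was 342.1 to 403.2 TPM.

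Of the E-type cyclins, Ccne2 separated the clones. Ccne2 (chr4:11191351-11204779, plus strand, GRCm38) had 686 and 650 normalized counts in the parental line, 757 and 782 in B04, and 567 and 578 in B64. On this scale the 3 lines did not overlap, with B04 highest and B64 lowest. In TPM the parental line (22.74 and 21.05) overlapped both B04 (22.6 and 30.52) and B64 (21.05 and 21.7). Ccne2 was lower in B64 than in B04 by a log2 fold change of -0.43 (SE 0.12, fold 0.74, adjusted p = 0.00299, DESeq2). Against the parental line its values were 0.20 (SE 0.12, adjusted p = 0.23) in B04 and -0.22 (SE 0.12, adjusted p = 0.24) in B64 with DESeq2, neither called, and edgeR called both (adjusted p = 0.0405 and 0.0481). The call between the clones was lost without any 1 of their 4 libraries (adjusted p = 0.0569 without B04 A, 0.0867 without B04 B, 0.091 without B64 A and 0.0649 without B64 B), after blocking on fragment-length class (-0.45, adjusted p = 0.0678) with the effective-length offset (-0.27, adjusted p = 0.284) and with limma on log2(TPM + 1) (-0.29, adjusted p = 0.218).

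Ccne1, which shares the role of activating Cdk2, had 756 and 759 counts in the parental line, 797 and 898 in B04, and 793 and 680 in B64. Both B04 libraries lay above all the others, the lower of them by few counts, and no comparison was called. Its log2 fold change between B64 and B04 was -0.20 (95% interval -0.44 to 0.04, adjusted p = 0.253, DESeq2). The ratio of Ccne1 to Ccne2 in TPM was 0.93 to 1.17 over the 6 libraries. Within the short-fragment libraries, B64 differed from B04 replicate B by -0.45 for Ccne2 and -0.29 for Ccne1 on the log2 scale.

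For the kinase partners of the D-type cyclins no change was called. Cdk4 had 14551 and 15393 normalized counts in the parental line, 15051 and 15314 in B04, and 15752 and 15319 in B64, and its intervals against the parental line were -0.08 to 0.12 for B04 and -0.05 to 0.16 for B64. In TPM, Cdk4 was 709.51, 725.12 and 735.86 in the long-fragment libraries and 882.67, 920.45 and 967.47 in the short-fragment ones. B04 replicate A had 735.86 TPM and replicate B 967.47 TPM. Between B64 and the parental line, fragment class and line cannot be told apart. Cdk6 had 2924 and 2651 counts in the parental line, 2749 and 2561 in B04, and 2655 and 2574 in B64. The lines overlapped, and its log2 fold changes were -0.07 (SE 0.08) in B04 and -0.09 (SE 0.08) in B64. Cdk4 exceeded Cdk6 by 8.0 to 13.1 times in TPM.

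Cdk2, the partner of the E-type cyclins, was the kinase that differed. Cdk2 (chr10:128697939-128705031, minus strand) had 1293 and 1230 normalized counts in the parental line, 1353 and 1339 in B04, and 1058 and 954 in B64. Both B64 libraries lay under the 4 others. Cdk2 fell in B64 against the parental line (log2 fold change -0.33, SE 0.10, fold 0.80, adjusted p = 0.0086, DESeq2) and was lower in B64 than in B04 (-0.42, SE 0.10, fold 0.75, adjusted p = 0.000198, DESeq2). In B04 its change from the parental line was 0.09 (SE 0.10, adjusted p = 0.58, DESeq2). The call against the parental line was lost without parental A (adjusted p = 0.203), parental B (0.0542) or B64 B (0.298), after blocking on fragment-length class (-0.31, adjusted p = 0.87), and with limma on log2(TPM + 1) (-0.34, adjusted p = 0.0551) or log2(TPM + 0.1) (-0.35, adjusted p = 0.0544). The call between the clones was lost without B64 B (adjusted p = 0.0604) and held within the block (-0.41, adjusted p = 0.0294).

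**Figure D3:**
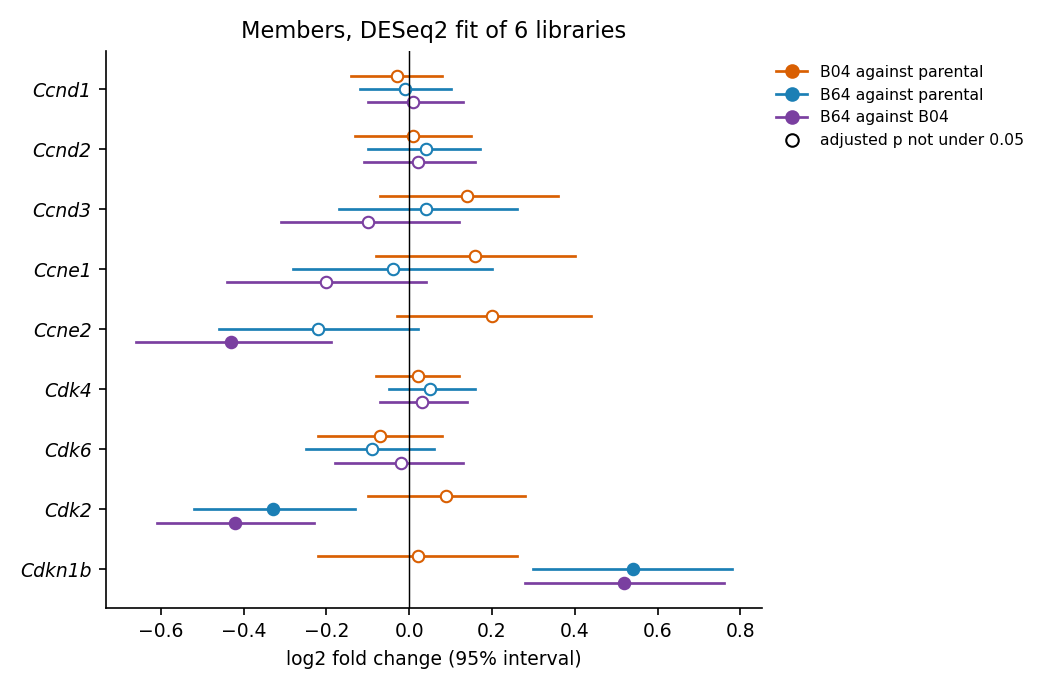
Log2 fold change of the 9 members tested (horizontal axis) with its 95% interval, for B04 against the parental line (orange), B64 against the parental line (blue) and B64 against B04 (purple), where filled points are genes called by DESeq2 and open points are not. Filled points appear for Ccne2, Cdk2 and Cdkn1b, and Cdkn1b reaches 0.54 in B64.

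Cdkn1b, whose product p27 binds and blocks cyclin E-Cdk2, was the member with the largest change. Cdkn1b (chr6:134920401-134925513, plus strand) had 680 and 728 normalized counts in the parental line, 773 and 650 in B04, and 1073 and 976 in B64. Both B64 libraries stood above the other 4, while those of B04 spanned the parental ones. In B64, Cdkn1b rose by 0.54 on the log2 scale against the parental line (SE 0.12, fold 1.45, adjusted p = 0.000179, DESeq2) and by 0.52 against B04 (SE 0.12, fold 1.44, adjusted p = 0.000196, DESeq2). In B04 the change was 0.02 (95% interval -0.22 to 0.26). After blocking on fragment-length class these values were 0.79 (adjusted p = 0.032) and 0.65 (adjusted p = 0.00126). The block rests on the B04 libraries alone, so the value against the parental line holds no comparison within a class. The first call was lost without B64 A (0.47, adjusted p = 0.0653), and the second without B04 B (0.40, adjusted p = 0.0547) or B64 A (0.46, adjusted p = 0.0543).

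In B64 the inhibitor thus changed in the direction opposite to its kinase. The ratio of Cdkn1b to Cdk2 in TPM was 0.51 and 0.57 in the parental line, 0.53 and 0.47 in B04, and 0.98 and 1.02 in B64. This is a ratio of transcripts and gives no protein level. The genes whose pattern over the 6 libraries was most like that of Cdkn1b, among 9877 genes whose normalized counts averaged 100 or more, were Rhoq, Usp20, Tnks1bp1, Mettl5 and Pdgfc, with Pearson's r of 0.9873 to 0.9921 on log2(normalized count + 1). These correlations over 6 libraries describe the pattern and share the same libraries. Because Cdkn1b was highest in B64, genes chosen this way tend to be higher in B64 too, and their adjusted p-values are no separate support. In B64 against the parental line, Rhoq (0.33), Usp20 (0.25), Tnks1bp1 (0.23) and Mettl5 (0.34) changed less than Cdkn1b on the log2 scale. Of these, Usp20 and Mettl5 were not called (adjusted p = 0.0607 and 0.101, DESeq2). Pdgfc, which encodes a platelet-derived growth factor, had the change nearest in size (0.58, SE 0.21, adjusted p = 0.0388, DESeq2). It had 165.0 and 187.1 normalized counts in the parental line and 276.4 and 250.2 in B64.

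Start-site windows of the members that changed in B64 are shown because their transcript levels moved in opposite directions. RefSeq windows of 250 bases before to 50 bases after the start (GRCm38.p6) were at hand for 7 members, with 9 windows in all, among 32851 windows of all genes. Capitals mark matches on either strand to the E2F motif, searched as TTTCCCGC, TTTCGCGC, TTTGCCGC and TTTGGCGC, which 2.3% of all windows hold.
Cdkn1b, chr6:134920151-134920450, plus strand: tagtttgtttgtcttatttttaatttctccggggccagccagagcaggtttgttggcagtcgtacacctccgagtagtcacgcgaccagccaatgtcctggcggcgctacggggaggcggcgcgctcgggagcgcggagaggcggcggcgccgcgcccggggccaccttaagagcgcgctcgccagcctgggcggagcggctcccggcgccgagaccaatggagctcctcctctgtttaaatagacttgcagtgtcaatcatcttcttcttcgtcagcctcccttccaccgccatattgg
Cdk2, chr10:128705002-128705301, minus strand: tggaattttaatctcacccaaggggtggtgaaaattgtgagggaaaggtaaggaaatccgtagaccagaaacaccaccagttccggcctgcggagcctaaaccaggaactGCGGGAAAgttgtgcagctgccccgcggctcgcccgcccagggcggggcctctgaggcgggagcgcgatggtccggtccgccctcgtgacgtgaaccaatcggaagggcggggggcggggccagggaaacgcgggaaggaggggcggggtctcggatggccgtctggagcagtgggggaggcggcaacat
The Cdk2 window held 1 E2F match, on the strand opposite to the gene and beginning 140 bases before the start, and the Cdkn1b window held none. Among the other windows only that at the upstream Cdkn2a start held a match, and those of Ccnd3, Ccne1, Cdk4 and Cdk6 held none. The GC box GGGCGG, found in 35.7% of all windows, occurred 6 times in the Cdk2 window and once in that of Cdkn1b. The forkhead motif TGTTTAC, found in 3.6% of all windows, was present in neither. These are letter matches in short windows and not measured binding.

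Cdkn2a was at the limit of detection in every library. The gene (chr4:89274471-89294653, minus strand) had 2 and 3 expected counts in parental replicates A and B, 2 and 2 in B04, and 5 and 2 in B64, or 16 among 130888189 counts over all libraries. Only B64 replicate A exceeded the floor of 3 counts, and its exact Poisson interval of 1.62 to 11.67 counts overlapped those of all the others. The TPM was 0.16 and 0.22 in the parental line, 0.15 and 0.16 in B04, and 0.45 and 0.17 in B64. These reads are few but not 0. Whether they mark transcription of Cdkn2a or are stray or misassigned reads was not tested. Clear expression was therefore not shown at this depth, no fold change is given, and whether the lines differ was not detectable. Floors and intervals cover counting error only. Transcripts for p16 and p19Arf cannot be told apart in a gene-level count.

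The windows at the 2 RefSeq starts of Cdkn2a are shown because the gene had almost no reads from either. The upstream start belongs to p19Arf and the downstream start to p16.
Cdkn2a upstream start, chr4:89294570-89294869, minus strand: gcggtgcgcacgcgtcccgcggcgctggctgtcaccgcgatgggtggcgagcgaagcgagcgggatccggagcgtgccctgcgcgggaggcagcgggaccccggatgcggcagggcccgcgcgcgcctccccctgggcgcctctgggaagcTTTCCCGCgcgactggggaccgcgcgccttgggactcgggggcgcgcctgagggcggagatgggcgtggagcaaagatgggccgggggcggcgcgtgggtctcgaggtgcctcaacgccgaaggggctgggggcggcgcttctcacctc
Cdkn2a downstream start, chr4:89282143-89282442, minus strand: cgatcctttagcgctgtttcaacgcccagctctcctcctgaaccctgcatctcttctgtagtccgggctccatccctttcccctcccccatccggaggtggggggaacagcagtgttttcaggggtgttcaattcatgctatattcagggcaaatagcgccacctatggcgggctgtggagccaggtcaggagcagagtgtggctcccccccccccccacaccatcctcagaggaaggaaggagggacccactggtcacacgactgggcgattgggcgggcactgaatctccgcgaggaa
The upstream window had 77.0% G and C and 45 CpG, more than 98.1% of all windows, and 1 E2F match beginning 99 bases before the start (capitals). The downstream window had 60.3% G and C and 12 CpG, where the median of all windows was 7. DNA methylation and DNA copy number were not among the measurements used here.

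Most genes around Cdkn2a also had few or no reads, while Mtap beside it had many. Mtap, a methionine-salvage enzyme gene on the adjoining side, had 3600 to 4429 expected counts in the 6 libraries and was called in no comparison. Cdkn2b, the INK4 gene on the other side, had 1 count in each parental library and 0 in the other 4. Of the 40 protein-coding genes within 1 Mb of Cdkn2a, 34 had at most 10 counts in every library and 25 of these had 0 in all, most of them type I interferon genes. Dmrta1 and Zfp352, beyond Cdkn2b, were at 0. The remaining genes with reads were Focad (662 to 1010 counts), Klhl9 (659 to 862), Gm26566 (59 to 118), Hacd4 and Gm13276, the last with up to 13 counts. Hacd4, a fatty acid elongation enzyme gene, had 96 and 103 expected counts in the parental line, 321 and 285 in B04, and 41 and 47 in B64. It rose in B04 (log2 fold change 1.63, SE 0.24, adjusted p = 7.82e-10, DESeq2) and fell in B64 (-0.97, SE 0.28, adjusted p = 0.00605, DESeq2), the fall being lost with the fragment-length block and without any 1 parental or B64 library (adjusted p up to 0.121).

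**Figure D4:**
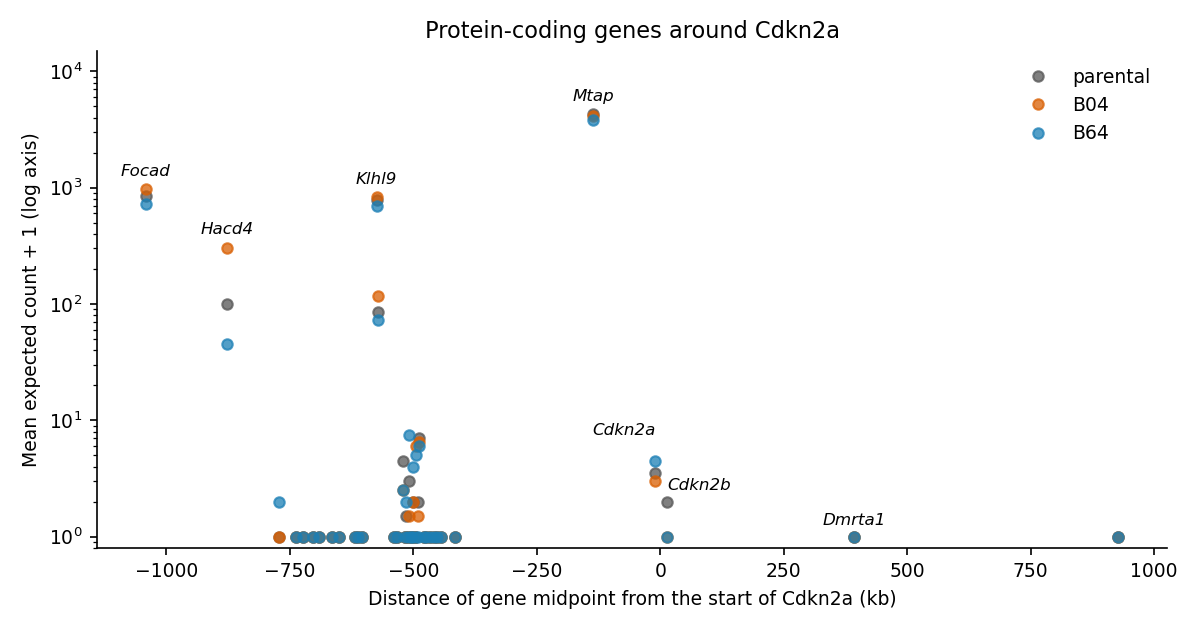
Mean expected count plus 1 per line (log axis) of the 40 protein-coding genes within 1 Mb of Cdkn2a against the distance of the gene midpoint from the Cdkn2a start in kilobases, where a midpoint may lie past the window if the gene reaches into it. Mtap stands at over 3600 counts next to Cdkn2a and Cdkn2b, both at 5 counts or fewer, and Hacd4 is highest in B04 and lowest in B64.

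Of 16 listed regulators of the Cdkn2a locus, 14 were tested. In B04, 4 were higher and 1 lower than in the parental line, in B64 3 were higher and 1 lower, and between B64 and B04 1 was higher and 5 lower, where 23.8%, 16.2% and 24.1% of all genes were called in either direction. Without parental A, parental B, B64 A or B64 B, and with the fragment-length block, 0 were called in B64 against the parental line. Leaving out 1 library gave 1 to 4 higher and 0 to 1 lower in B04 (1 higher without parental A or B04 B), and 1 higher and 1 to 4 lower between B64 and B04 (1 lower without B64 A). Bmi1, a Polycomb repressor of the locus, was slightly lower in B64 (log2 fold change -0.19, SE 0.07, adjusted p = 0.0439, DESeq2), a call lost in 13 of 16 alternatives, among them the removal of any 1 library (adjusted p up to 0.357). Id1, a repressor of p16 transcription, rose in both clones, by 0.83 in B04 (SE 0.17, adjusted p = 1.09e-05) and by 0.55 in B64 (SE 0.17, adjusted p = 0.0111), the latter lost with the fragment-length block and without any 1 parental or B64 library (adjusted p up to 0.274). In B04, Cbx7 (0.47) and Ets1 (0.29) were called higher and Dmtf1 (-0.35) lower. Each was lost with that block, and without parental A or B04 B (adjusted p up to 0.179), without parental B except Dmtf1, and without B04 A except Cbx7. Ets2 (0.20) and Kdm6b (0.28) were called higher in B64, and both calls were lost with the block and without any 1 of the 6 libraries (adjusted p up to 0.30).

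Inhibitors outside the chosen 10 also differed between the lines. Of 6 listed, 4 were tested, since Cdkn1c and Cdkn2b had at most 1 count in any library. In B04, 3 were higher and 1 lower than in the parental line, where 11.1% of all genes tested were called higher and 12.8% lower. The median log2 fold change of the 4 was 0.63, beside 0.0 for all genes tested. In B64, 1 was higher and 0 lower than in the parental line, where 16.2% of all genes were called. Between B64 and B04, 1 was higher and 2 lower, where 24.1% were called. Cdkn2c, which encodes the INK4 inhibitor p18, had 964 and 1044 normalized counts in the parental line, 1615 and 1600 in B04, and 885 and 950 in B64. It rose in B04 by 0.68 (SE 0.10, adjusted p = 1.08e-10, DESeq2), and B64 lay under B04 by a log2 fold change of -0.81 (adjusted p = 1.04e-14, DESeq2). Cdkn2d, which encodes p19Ink4d, rose in B04 by 0.58 (SE 0.11, adjusted p = 2.35e-06, DESeq2), from 741 and 875 counts to 1228 and 1187, and had 962 and 959 counts in B64. Its lower level in B64 than in B04 (-0.33) was called, but not with the fragment-length block or without any 1 of the 4 clone libraries (adjusted p up to 0.207, DESeq2). Cdkn2c and Cdkn2d were thus the INK4 genes with more than a few reads, and their rises in B04 held in all 16 alternatives.

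Cdkn1a, the p53-inducible KIP inhibitor p21, moved apart in the clones. It had 7082 and 7182 normalized counts in the parental line, 6324 and 6045 in B04, and 8962 and 9000 in B64, with no overlap among lines. In B64, Cdkn1a rose by 0.33 on the log2 scale (SE 0.06, adjusted p = 7.68e-08, DESeq2) and exceeded its level in B04 by 0.54 (SE 0.06, adjusted p = 2.78e-20, DESeq2), calls that held in all 16 alternatives. Its fall in B04 of -0.21 (SE 0.06, adjusted p = 0.00179, DESeq2) was lost in 5 alternatives, among them the fragment-length block and the fit without B04 B (adjusted p = 0.0949). Both KIP genes with reads, Cdkn1a and Cdkn1b, were thus called higher in B64. Cdkn3, a CDK-directed phosphatase that peaks late in the cycle, rose in B04 by 0.69 (SE 0.22, adjusted p = 0.00962, DESeq2), a call lost in 5 alternatives, among them the fits without parental A, B04 A or B04 B (adjusted p up to 0.241).

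The pocket proteins and E2F factors, through which the kinases act, gave 5 higher and 1 lower of 13 in B04, 0 higher and 6 lower in B64, and 0 higher and 7 lower between B64 and B04. Their median log2 fold changes were 0.12, -0.25 and -0.26, beside 0.0 for all genes tested, of which 11.1% were called higher in B04, 7.39% lower in B64 and 11.0% lower between B64 and B04. The 5 higher in B04 became 2 without B04 A and 3 without parental B, and the 6 lower in B64 became 1 without parental A, 2 without B64 A and 0 without B64 B. Rb1 was not called, with 612 and 585 normalized counts in the parental line, 605 and 561 in B04, and 560 and 609 in B64. Rbl2, the pocket protein p130 of resting cells, rose in B04 from 384 and 373 counts to 643 and 660 (log2 fold change 0.78, SE 0.14, adjusted p = 4.09e-07, DESeq2). Rbl1, or p107, was called higher in B04 (0.23, adjusted p = 0.0115) and lower in B64 (-0.25, adjusted p = 0.00897), both calls being lost with the fragment-length block and without single libraries (any parental or B04 library for the first, parental A or either B64 library for the second, adjusted p up to 0.198), and lay lower in B64 than in B04 (-0.47, SE 0.07, adjusted p = 5e-09), which held in all 16 alternatives. The activator E2f2 (0.79, adjusted p = 2.61e-05) and the repressor E2f7 (0.47, adjusted p = 8.54e-05, and 0.0507 without B04 A) rose in B04. The E2F partners Tfdp1 (-0.25, adjusted p = 0.000841) and Tfdp2 (-0.36, adjusted p = 0.0397) and the repressor-type E2f4 (-0.25, adjusted p = 0.00185) were called lower in B64, and each of these was lost with the block and without B64 B (adjusted p up to 0.518), E2f4 also without parental A and Tfdp2 without any 1 library. With that block DESeq2 called 0 of the 13 between B64 and the parental line, and 0 had an unadjusted p under 0.05. The blocked fit called only 339 of all 13332 genes tested in that comparison. Without the block edgeR called 7 of the 13 lower.

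**Figure D5:**
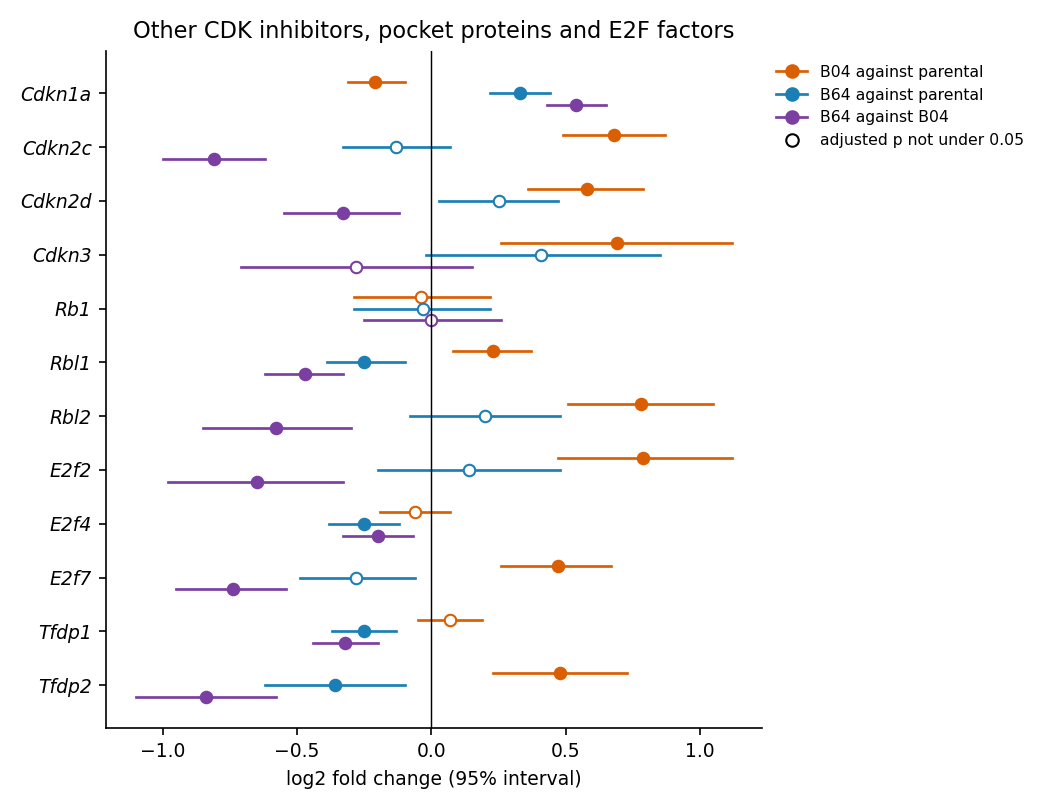
Log2 fold change with its 95% interval (horizontal axis) for CDK inhibitors outside the chosen 10, pocket proteins and E2F factors, in the colors and symbols of the plot for the members. Cdkn2c, Cdkn2d, Rbl2 and E2f2 lie to the right in B04 (0.58 to 0.79), and Cdkn1a lies on opposite sides of 0 in B04 and B64.

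Of 22 listed transcripts that E2F factors induce, 14 were called higher and 0 lower in B04 than in the parental line, and 8 were not called. In B64, 1 was higher and 3 lower, and 0 were higher and 17 lower in B64 than in B04. Over all genes tested 11.1% were called higher in B04, 7.39% lower in B64 and 11.0% lower in B64 than in B04. The medians were 0.34, -0.02 and -0.38 on the log2 scale, beside 0.0 for all genes tested. Mcm7, a subunit of the replicative helicase, rose in B04 by 0.55 (adjusted p = 4.23e-20), the licensing factor Cdt1 by 0.56 (adjusted p = 1.09e-12) and the thymidine kinase Tk1 by 0.72 (adjusted p = 3.61e-16), while Rrm2, a ribonucleotide reductase subunit, was lower in B64 than in B04 by -0.49 (adjusted p = 1.12e-14, all DESeq2). Mcm3 (-0.23) and Rrm1 (-0.25) were among those called lower in B64 than in the parental line. With the fragment-length block 0 of the 22 were called lower in B64, where that fit called 106 of all 13332 genes lower. The calls of Mcm3 and Rrm1 were lost with that block and with limma at either pseudocount. Both were also lost without B64 A, and that of Mcm3 without B64 B or parental B (adjusted p at most 0.188 for Rrm1 and 0.103 for Mcm3, DESeq2). Over the 16 alternatives the count higher in B04 was 11 to 17, the count lower in B64 than in B04 13 to 19, and that lower in B64 than in the parental line 0 to 3. The summed TPM of 6 proliferation markers was 391.95 and 369.83 in the parental line, 514.33 and 550.78 in B04, and 397.76 and 396.16 in B64. Its part in the values of the cyclins, inhibitors and E2F-driven genes was not tested, and a different share of cycling cells cannot be told apart from a different level per cell in bulk RNA.

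Of 9 other CDK activators and partners, 8 were tested, and 2, 0 and 4 of them were called in B04, in B64 and between the clones, where 23.8%, 16.2% and 24.1% of all genes were. In B04, Ccna2, the S-phase cyclin, was called higher (0.17, adjusted p = 0.0492) and Cks1b, a cofactor for p27 recognition, lower (-0.27, adjusted p = 0.00543), and both calls were lost with the fragment-length block and without parental B or B04 B (adjusted p up to 0.386), Ccna2 also without any other library. DESeq2 called 0 of the 8 between B64 and the parental line, as did edgeR, and 2 had an unadjusted p under 0.05 with either tool. Between B64 and B04 2 were higher, among them the kinase chaperone Cdc37 (0.20, adjusted p = 0.00173), and 2 lower, Cks2 (-0.21, adjusted p = 0.0217) and Ccna2 (-0.19, adjusted p = 0.0227). These 3 were lost with the fragment-length block and without B04 A or B64 B (adjusted p up to 0.377), Cks2 and Ccna2 also without B04 B or B64 A. With that block, and without B04 A or B64 B, 0 of the 8 were called between the clones.

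Genes that control the turnover of cyclins and p27 gave 6 higher and 1 lower of 14 tested in B04, 1 higher and 1 lower in B64, and 2 higher and 4 lower between B64 and B04, where 23.8%, 16.2% and 24.1% of all genes were called. The 6 higher in B04 became 3 without parental B, 2 without any other library and 2 with the fragment-length block. The 2 higher between the clones became 0 without any 1 library, and the 4 lower became 1 without B04 A or B64 A and with that block. Skp2, the ubiquitin ligase subunit that marks p27 for destruction, had 849 and 759 normalized counts in the parental line, 991 and 974 in B04, and 708 and 758 in B64. It was lower in B64 than in B04 by a log2 fold change of -0.42 (SE 0.11, adjusted p = 0.00156, DESeq2), a call lost with the block and without B04 A or B64 A (up to 0.101), while its call in B04 against the parental line (0.29, adjusted p = 0.0433) was lost in 13 of 16 alternatives, among them the removal of any 1 library (adjusted p up to 0.407). Fbxo31, a ligase subunit for cyclin D1, rose in B04 (0.63, adjusted p = 9.3e-08), as did Cul4b (0.38, adjusted p = 0.000154), and Cul3, a scaffold for ligases that include those for cyclin E, fell (-0.47, adjusted p = 4.27e-08, not called with limma). Between B64 and B04, Fbxo31 (-0.38) and Cul4b (-0.28) were called lower and Cul3 (0.21) higher. The Fbxo31 call was lost without B04 A or B64 A (adjusted p up to 0.118) and that of Cul4b without any 1 of the 4 clone libraries (up to 0.207), both also with the block, and that of Cul3 was kept in 3 of 16 alternatives and lost without any 1 library (up to 0.339). In B64, Rbx1 was called higher (0.33, adjusted p = 0.000578) and Cul3 lower (-0.27, adjusted p = 0.00656), but Cul3 changed sign in 3 alternatives, and both were lost with the block and without parental A or B64 A, Cul3 also without parental B or B64 B (adjusted p up to 0.201). Usp2, a cyclin D1 deubiquitinase with 15.9 to 85.5 counts, was lower in B64 than in B04 (-1.94, SE 0.46, adjusted p = 0.000261), a call lost with the effective-length offset and with limma.

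A list of inducers and repressors of D-type cyclins and p27 had 18 genes tested. In B04, 6 of them were higher and 4 lower, in B64 2 higher and 0 lower, and between B64 and B04 5 higher and 5 lower. Over all genes, 23.8%, 16.2% and 24.1% were called in these comparisons. The 6 higher in B04 became 3 without parental B or B04 A, the 2 higher in B64 became 0 without parental A and 1 without B04 A, B64 A or B64 B, and the 5 higher between the clones became 3 without B04 B, B64 A or B64 B, with 3 lower in place of 5 without B64 A. Fosl1, an AP-1 subunit that induces Ccnd1, fell in B04 from 2418 and 2575 normalized counts to 1077 and 1117 (log2 fold change -1.19, SE 0.08, adjusted p = 1.01e-44, DESeq2), and had 2161 and 2181 counts in B64. Egr1 also fell in B04 (-0.47, adjusted p = 6.86e-05), a call lost with the fragment-length block. The Myc antagonist Mxi1 rose in B04 (0.81, adjusted p = 2.03e-12) and in B64 (0.44, adjusted p = 0.000685), and Mxd1 was called higher in B64 (0.58, adjusted p = 0.0223). Both B64 calls were lost with that block, that of Mxi1 also without parental A (adjusted p = 0.118), and that of Mxd1 without any 1 library but B04 B (adjusted p up to 0.269). Klf4 (0.52, adjusted p = 5.6e-13) and Notch1 (0.84, adjusted p = 3.34e-07) rose in B04. In that line the interval of the Ccnd1 log2 fold change was the -0.14 to 0.08 given above.

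Several members share bases with a gene on the opposite strand, and the counting is not stated to use strand, so reads in those stretches cannot be told apart. Ccne2 overlaps Ints8 over 5622 bases (837 to 1008 normalized counts), Ccnd1 overlaps LTO1 over 1771 (230 to 313), Cdk4 overlaps Tspan31 over 641 (2194 to 2797) and Ccnd3 overlaps Bysl over 361 (1527 to 1812). Cdk2 overlaps Pmel over 837 bases, and Pmel had at most 7.9 normalized counts. Ccnd2 and Cdk6 overlap antisense genes with at most 38.3 counts. Ccne1, Cdkn1b and Cdkn2a overlap no annotated gene.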

How the data were processed

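RNA-seq was measured in 6 libraries, 2 per line, grouped by the sample titles. Per the submitters' notes, reads were aligned to mm10 with STAR and quantified with RSEM. Expected counts were estimated per gene by the authors with RSEM and were rounded here. The TPM values were scaled by the authors with effective length and library total. Gene length and effective length came with them, and FPKM was not used. Library totals were 19409204 to 23472012 counts, and floors and Poisson intervals cover counting error only. Of the gene identifiers, 99.8% matched a symbol in GENCODE M21 (GRCm38).

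All libraries entered 1 DESeq2 fit (version 1.42.0, R 4.3.3) with the line as its term, and the threshold was an adjusted p (Benjamini-Hochberg) of 0.05 after independent filtering. edgeR (version 4.0.16) and limma (version 3.58.1, pseudocounts of 1 and 0.1) were alternatives, as were normalization, filters, blocks, an effective-length offset and leaving out each library, 16 in all. Fits were tested on simulated data. Deviations from the line mean correlated weakly between libraries of the same replicate letter (0.11, 0.01 and -0.05). What the letters share is not stated, and these values cannot settle it.

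Members and lists were chosen with earlier results of these data known, and 100 of 101 pathway genes were matched. Named were all members, up to 3 called genes with the smallest adjusted p per list and comparison, all other inhibitors and pocket proteins, protein-coding genes within 1 Mb of Cdkn2a that had reads, and the 5 genes most like the member with the largest change. Some listed genes are counted but not reported by name here. Motifs were searched in RefSeq windows. Protein sequences were not analysed here.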

Additional observations from a re-analysis of the deposited data

Results flagged for a closer look

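The effects of the 2 clones against the parental line differed, by the direct DESeq2 comparison of B64 with B04, for 3 members. The log2 differences were 0.52 for Cdkn1b, -0.42 for Cdk2 and -0.43 for Ccne2. For the other inhibitors they were 0.54 for Cdkn1a, -0.81 for Cdkn2c and -0.33 for Cdkn2d. The pocket proteins Rbl1 and Rbl2 gave -0.47 and -0.58, and the E2F factors and partners E2f2, E2f4, E2f7, Tfdp1 and Tfdp2 gave -0.65, -0.20, -0.74, -0.32 and -0.84. Among E2F-driven genes the differences were -0.33 for Mcm3, -0.51 for Mcm7, -0.38 for Cdt1, -0.42 for Rrm1, -0.49 for Rrm2 and -0.70 for Tk1.

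Among CDK partners and turnover genes, Cks2 gave -0.21, Cdc37 0.20, Ccna2 -0.19, Skp2 -0.42, Fbxo31 -0.38, Cul3 0.21, Cul4b -0.28 and Usp2 -1.94. Upstream factors gave 0.99 for Fosl1, 0.61 for Egr1, -0.37 for Mxi1, 0.64 for Mxd1, -0.36 for Klf4 and -0.93 for Notch1. Of the regulators of the Cdkn2a locus, Bmi1 gave -0.26, Ets1 -0.46 and Kdm6b 0.42. Many of these calls did not hold in every alternative. Without 1 library (adjusted p up to 0.377), Cul3 was lost for any of the 6, Ccne2, Cdkn2d, E2f4, Cul4b, Cks2 and Ccna2 for any of the 4 clone libraries, Mxi1 and Mxd1 for B04 B, B64 A or B64 B, E2f2, Skp2 and Fbxo31 for B04 A or B64 A, Cdc37 for B04 A or B64 B, Cdkn1b for B04 B or B64 A, Bmi1 for B64 A, and Cdk2 and Rbl2 for B64 B. The fragment-length block lost Ccne2, Cdkn2d, E2f2, E2f4, Cul3, Cul4b, Cks2, Ccna2, Skp2, Fbxo31, Cdc37 and Bmi1, and limma lost Ccne2, E2f7, Cul3, Cul4b, Ccna2, Fbxo31, Cdc37, Usp2, Mxd1 and Bmi1. Groups of 2 libraries allow no test for outlying libraries.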

How the results depend on the processing

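Of the 432 refits of a member's log2 fold change, 376 kept direction and side of the threshold, 18 lost the call, 8 gained one and 30 changed sign, the last all for members not called. Replicate letters were checked as a block, which called 0, 2 and 3 members in the 3 comparisons (B04 and B64 against the parental line, then B64 against B04), as without it, and 2643, 1709 and 2622 genes. Both edgeR and limma (either pseudocount) called 1 member in B04. In B64 against the parental line, limma called 2 members higher and 0 lower with either pseudocount, and edgeR 1 higher and 2 lower. With fragment-length class as a block 1 member was called in B64 against the parental line, and 1593, 339 and 1623 genes were called in the 3 comparisons; limma called 1964, 1236 and 2043 genes with a pseudocount of 1 and 1968, 1221 and 2025 with 0.1. Leaving out 1 library gave 1 to 2 and 1 to 3 members called in the B64 comparisons, and 1754 to 2573, 988 to 1779 and 1679 to 2752 genes; it can leave a line with 1 library, assumed to vary like the others.

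Sign changes were small. With the effective-length offset, B04 against the parental line gave 0.06 for Ccnd1, -0.02 for Ccnd2, 0.05 for Cdk6 and -0.05 for Cdkn1b, and Ccnd1 gave -0.06 between the clones. With limma, Ccnd1 and Cdk6 gave 0.13 in B04 with either pseudocount, and Ccnd1 gave 0.03 in B64 and -0.09 and -0.10 between the clones. With the fragment-length block, Cdk6 gave 0.01 in B64 and 0.03 between the clones, and Ccnd1 -0.01 between the clones. Without single libraries, values in B04 ran from -0.08 to 0.11 for Ccnd2, -0.02 to 0.06 for Cdk4, and -0.12 to 0.14 for Cdkn1b. In B64 they ran from -0.08 to 0.05 for Ccnd1, -0.06 to 0.13 for Ccnd2, -0.07 to 0.16 for Ccnd3 and -0.15 to 0.07 for Ccne1, and between the clones from -0.05 to 0.08 for Ccnd1, -0.01 to 0.06 for Ccnd2 and -0.07 to 0.03 for Cdk6.

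By normalized count per kilobase, shares of the D-type pool were 67.5% for Ccnd1 in B64, 20.0%, 20.2% and 20.6% for Ccnd2 in the parental line, B04 and B64, and 11.6%, 12.8% and 12.0% for Ccnd3. By a TPM of at least 0.1, Cdkn2a would count as detected in 6 libraries and not in 1. The causes of these shifts were not tested.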
